A study of Homo sapiens with 36 samples.

Results

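Expression of 33 genes of glycolysis, lactate handling and the pentose phosphate pathway was followed in cells in which the stress kinase PERK was switched on, with and without the transcription factor ATF4. The genes were chosen by symbol as the named enzymes, transporters and regulatory kinases of these routes. They are 33 of the 57665 gene identifiers in the tables, and all 33 passed the filter on low counts that left 19043 genes for testing. The cells were U2OS, a human osteosarcoma line, carrying Dmr-PERK, a form of PERK that a small-molecule ligand (the dimerizer) activates by bringing copies of it together. Wild-type and ATF4 knockout cells were sampled before treatment (0 h) and at 2, 4, 8, 16 and 24 h of dimerizer at a single labelled dose, with 3 wells in each of the 12 groups and 36 libraries in all. All groups carried Dmr-PERK and no untreated wells were sampled at the later times, so the kinase, the ligand and the hours in culture cannot be told apart. The labels do not say whether the knockout cells are 1 clone, nor whether the 3 wells of a group were grown apart, and p-values rest on the well-to-well spread alone. In bulk RNA a smaller number of cells expressing a gene and less RNA per cell cannot be told apart, and the values are of mRNA, not of protein or flux.

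Glucose enters the cell through GLUT transporters, is trapped by hexokinase and is split and oxidised to pyruvate in a chain of cytosolic reactions. Pyruvate is either reduced to lactate by lactate dehydrogenase and exported by monocarboxylate transporters, or enters the mitochondria through pyruvate dehydrogenase, which the PDK kinases switch off. Glucose 6-phosphate can instead pass into the pentose phosphate pathway, which makes NADPH and ribose 5-phosphate. PERK phosphorylates eIF2α during endoplasmic reticulum stress, which lowers general translation and raises translation of ATF4, an activator of amino acid synthesis and transport genes. Many glycolytic genes are known targets of the hypoxia factor HIF-1 and of MYC.

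Total counts per library ran from 8608783 to 16265056, and the 33 genes together took 0.953% to 1.314% of them. The genotype labels were checked on targets of ATF4, since knockout by small lesions can leave the transcript: ATF4 mRNA itself rose at 24 h in both genotypes, by 1.14 ± 0.032 in wild type and 1.46 ± 0.032 in the knockout on the log2 scale. Asparagine synthetase ASNS stood at 63.3, 59.7 and 61.2 CPM (counts scaled to library size) in untreated wild-type wells and 431, 428 and 429 CPM at 24 h, against 16.5, 18.2 and 17.2 and 15.8, 14.9 and 14.2 CPM in the knockout. The small ASNS change in the knockout at 24 h, -0.223 ± 0.090, was called (edgeR adjusted p = 0.0279). TRIB3 rose by 3.985 ± 0.053 in wild type and still by 0.895 ± 0.075 in the knockout at 24 h. SESN2 changed by 2.705 ± 0.063 and 0.132 ± 0.095, the latter not called. Of the U2OS markers, VIM ran from 1580 to 3090 CPM, and COL1A1, SPARC and RUNX2 were present in every library, while COL1A2 stayed at or below 1.12 CPM and was 0 in 1 library. Of the 5 mesenchymal markers 4 fell and 0 rose at 24 h in each genotype. Beside this count and that of the other markers below, 65.4% of all tested genes were called in each genotype. Of the markers of other cell types, EPCAM and CDH1 reached at most 5.48 and 8.43 CPM, PTPRC and PECAM1 at most 1.09 and 1.33 CPM, and ALB was 0 in 31 libraries. Of the 4 that passed the filter on low counts 1 rose and 2 fell in wild type at 24 h, and 0 rose and 1 fell in the knockout; their part in the results was not tested. Pseudogene copies carrying a member's symbol exist for 15 members and together held at most 2.76% of the parent's counts, in RPE.

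Genes of the lower steps of glycolysis and lactate dehydrogenase took different courses in the genotypes from 8 h on, from an untreated level that for most was lower in the knockout. At 24 h, LDHA, ENO2, PKM, PGAM1, PFKM and GPI were called lower than untreated in wild type and higher in the knockout. Of these 6, LDHA and PGAM1 kept both calls on TPM and without any 1 library, whereas ENO2 and PKM lost the knockout call on TPM, PFKM lost all its calls there and GPI lost the wild-type call without any 1 of 3 libraries. The values stand beside each gene below. At 24 h 65.4% of all tested genes were called in each genotype, and the share with opposite calls was not taken. Of the 9 genes from aldolase to pyruvate kinase, 8 changed more positively in the knockout than in wild type at 24 h. Beside them, 29.8% of all tested genes were called for this difference in either direction. Other members moved the same way in both genotypes: the mRNAs of hexokinase HK2, the kinase PDK1, the lactate transporter SLC16A1 and the ribose isomerase RPIA rose, and those of the PFKFB enzymes, PDK2, PDK3, ALDOC, SLC16A3 and both glucose transporters fell.

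A gene is called changed where its adjusted p was below 0.05 (edgeR quasi-likelihood test, adjusted over all 19043 genes), and changes are log2 fold changes with their standard error (SE). In wild type 2 of the 33 genes rose and 15 fell at 2 h, where 22.6% of all tested genes were called. By 4 h the counts were 6 and 17 (44.7% of all tested genes called), by 8 h 8 and 20 (59.3%), by 16 h 14 and 17 (66.5%) and by 24 h 10 and 18 (65.4%). In the knockout 2 rose and 7 fell at 2 h, where 18.3% of all tested genes were called. By 4 h they were 7 and 16 (42.4%), by 8 h 12 and 17 (61.9%), by 16 h 19 and 13 (65.7%) and by 24 h 18 and 12 (65.4%). The share of members called was above that of all tested genes at each time in both genotypes. Shares in genes of like abundance were not tested. Where the text says that 2 groups of libraries did not overlap, the same held at 24 h against 0 h for 68.7% of all tested genes in each genotype, and between genotypes for 35.2% at 0 h and 47.2% at 24 h. The median change of the 33 members at 24 h was -0.13 in wild type and 0.18 in the knockout, and that of all tested genes was -0.023 and -0.029. At 24 h 10 members had risen in both genotypes and 12 had fallen in both. A further 6 had fallen in wild type and risen in the knockout, and 0 did the reverse. The shares of all tested genes with calls in the same or in opposite directions were not taken.

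The difference between the courses, taken as knockout change less wild-type change, was tested as an interaction contrast. At 2 h 0 of 33 members passed it (0.299% of all tested genes did), 7 had an unadjusted p below 0.05, and DESeq2 called 1, TPI1. At 4 h it was higher in the knockout for 1 member, SLC2A1, and lower for 1, PDK1 (3.28% of all tested genes called). At 8 h 13 members were higher and 1 lower (18.3%), at 16 h 16 were higher and 6 lower (27.7%), and at 24 h 16 were higher and 4 lower (29.8%). The median difference of the members at 24 h was 0.21, beside 0.045 over all tested genes. The time of the first called difference was 4 h for 2 members, 8 h for 12, 16 h for 9 and 24 h for 1, so 24 of the 33 differed between genotypes at some time. The share of all tested genes called at any time was not taken, so that count has no background beside it. The 4 with a lower change in the knockout at 24 h were PDK1, SLC2A3, SLC16A1 and HK1.

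**Figure D1:**
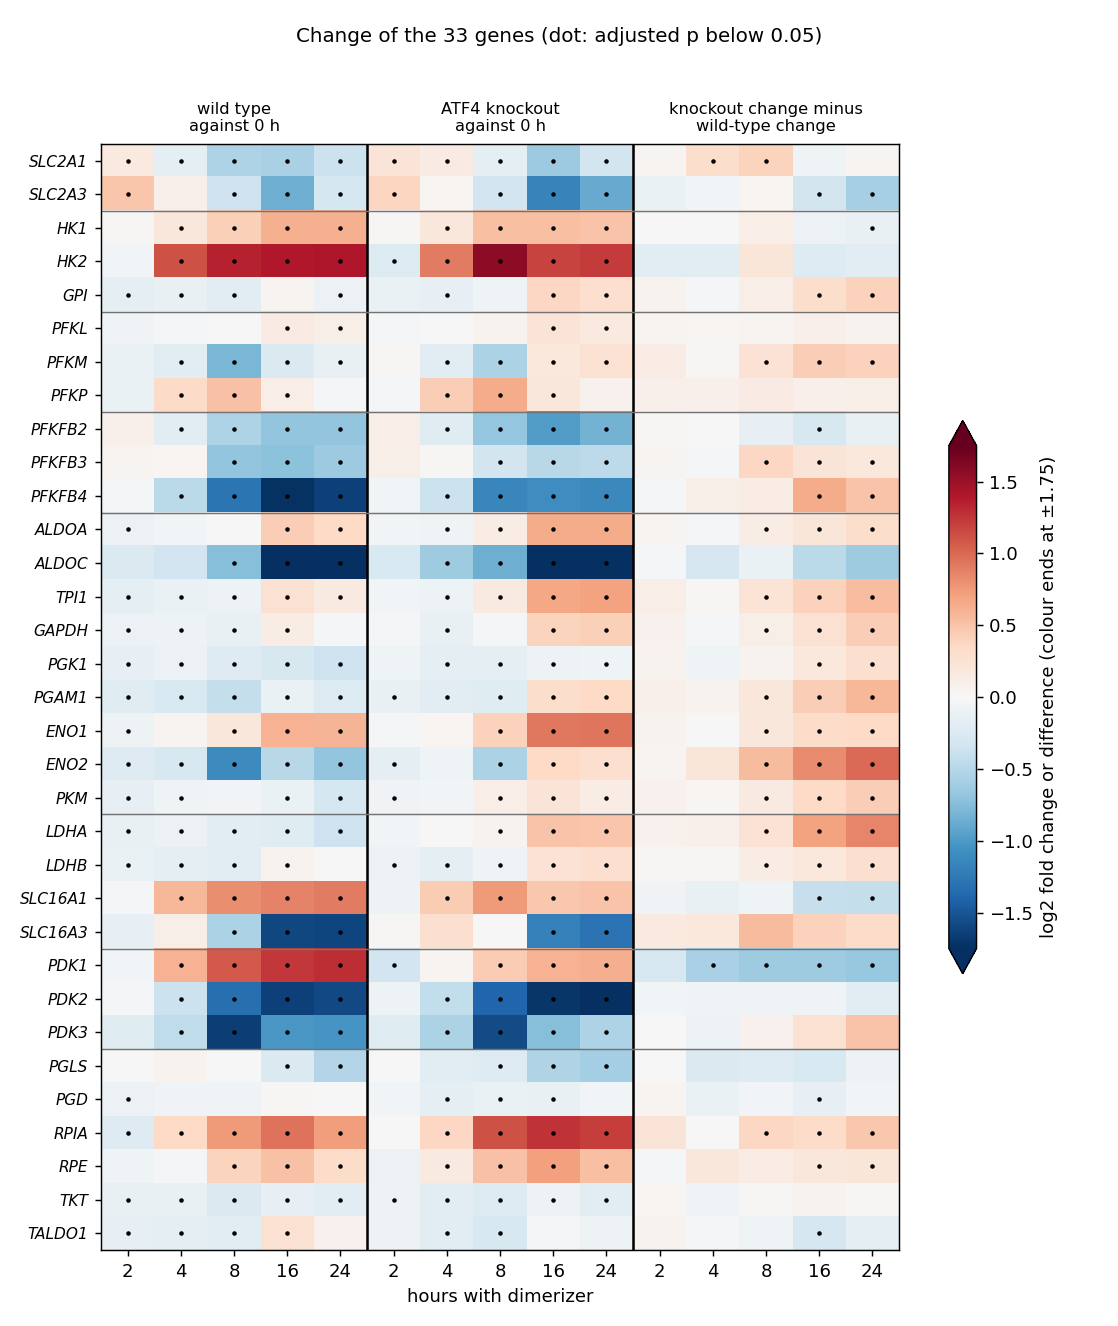
Log2 change of each of the 33 genes against 0 h in wild type (left block) and in the ATF4 knockout (middle block) and their difference, knockout less wild type (right block), by hours with dimerizer; a dot marks an adjusted p below 0.05. Rows follow the order of the pathway, and 16 members carry a dot with a positive difference at 24 h and 4 with a negative one.

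The genotypes did not start level. In untreated cells 4 members were higher in the knockout and 13 lower, where 23.5% of all tested genes were called. The 13 lower were GPI, ALDOA, TPI1, GAPDH, PGK1, PGAM1, ENO1, PKM, LDHA, LDHB, SLC16A1, TKT and TALDO1, and the 4 higher were SLC2A3, PFKM, PFKFB2 and ALDOC. At 2 h 4 members were higher and 10 lower in the knockout (21.5% of all tested genes called), by 4 h 7 and 17 (27.1%), by 8 h 9 and 9 (34.6%), by 16 h 15 and 8 (36.2%) and by 24 h 16 and 8 (38.1%). Of the 13 that were lower in untreated knockout cells, 9 were higher there at 24 h: GPI, ALDOA, TPI1, GAPDH, PGK1, PGAM1, PKM, LDHA and LDHB. SLC16A1, TKT and TALDO1 were lower at both ends, and ENO1 went from -0.31 to 0.044, the latter not called. A difference in change therefore holds both a lower start and a higher end for these genes, and both are given below.

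Levels can be set against each other between genes only per transcript length, for which the deposited TPM (abundance corrected for transcript length) of the 3 untreated wild-type libraries were used. GAPDH stood at 2946 ± 22.6 TPM (SD, n = 3), ENO1 at 1557 ± 27.4, PKM at 1471 ± 17.9, LDHA at 1027 ± 17.6, LDHB at 713 ± 10.5, ALDOA at 689 ± 12.7 and TPI1 at 628 ± 12.4 TPM. The ranges of ENO1 and PKM were 1526 to 1576 and 1451 to 1486 TPM, so they did not overlap. PGK1 (317 ± 4.4) and PGAM1 (313 ± 6.8 TPM) overlapped. The neuronal-type enolase ENO2 stood at 61.0 ± 3.2 TPM and aldolase ALDOC at 10.7 ± 0.73 TPM, far below ENO1 and ALDOA. Among the least abundant members were HK2 at 13.6 ± 1.7, PFKFB4 at 8.75 ± 1.6, PDK1 at 6.20 ± 0.77 and PDK3 at 5.76 ± 1.0 TPM. Fold changes of the abundant lower enzymes and of these rare ones are thus changes in very different amounts of RNA. All library values from here on are CPM, which do not correct for length.

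Both glucose transporters rose for a short time and then fell. SLC2A1 encodes GLUT1, the basal glucose carrier of most cells. It stood at 169.9, 165 and 169 CPM in untreated wild-type wells, 194, 186 and 191 CPM at 2 h, 112, 119 and 116 CPM at 8 h and 131, 128 and 130.3 CPM at 24 h. In the knockout it stood at 165, 159 and 154 CPM untreated, 186, 189 and 180.3 CPM at 2 h, 143, 145 and 139.7 CPM at 8 h and 128, 129 and 122 CPM at 24 h. Every 2 h library lay above, and every 8 h and 24 h library below, the untreated libraries of its own genotype. The changes at 2 h were 0.17 ± 0.032 and 0.22 ± 0.034, and those at 24 h -0.38 ± 0.035 and -0.33 ± 0.035, in wild type and knockout. The fall came later in the knockout: at 4 h the change was -0.17 in wild type and 0.14 in the knockout, and the difference was 0.31 ± 0.049 at 4 h (edgeR adjusted p = 1.39e-05) and 0.39 ± 0.050 at 8 h (edgeR adjusted p = 6.96e-08). At 24 h the difference was 0.047 ± 0.049, which was not called.

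SLC2A3 encodes GLUT3, a carrier with high affinity for glucose. Its untreated wild-type libraries held 70.3, 72.3 and 68.2 CPM, rising to 92.2, 93.97 and 108 CPM at 2 h and then standing at 41.03, 40.6 and 35.3 CPM at 16 h and 53.1, 57.7 and 59.9 CPM at 24 h. The knockout held 78.1, 85.9 and 89.01 CPM untreated, 92.9, 111 and 126 CPM at 2 h, 38.01, 37.6 and 37.1 CPM at 16 h and 48.8, 43.9 and 45.99 CPM at 24 h. The knockout started above wild type and ended below it, with no overlap between the genotypes at 0 h or at 24 h. The change at 24 h was -0.30 ± 0.076 in wild type and -0.88 ± 0.076 in the knockout, and the difference -0.58 ± 0.11 (edgeR adjusted p = 3.87e-05).

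Hexokinase mRNAs rose in both genotypes. HK2 is the inducible hexokinase that binds mitochondria. It held 57.3, 46.9 and 51.4 CPM in untreated wild-type wells, 114, 111 and 113 CPM at 4 h and 144, 137 and 136 CPM at 24 h. The knockout held 52.4, 43.6 and 45.8 CPM untreated, 89.7, 88.05 and 86.97 CPM at 4 h, 136, 144 and 137 CPM at 8 h and 110.2, 112 and 106 CPM at 24 h. The knockout stood highest at 8 h, and all its 24 h libraries lay below its 8 h ones. The changes at 24 h were 1.41 ± 0.067 and 1.22 ± 0.070, and their difference of -0.19 ± 0.10 was not called (edgeR adjusted p = 0.154), though it was without untreated wild-type replicate 1 (-0.29, adjusted p = 0.0324). HK2 was lower in the knockout at 24 h itself, by -0.35 ± 0.060, with no overlap between the genotypes.

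HK1, the housekeeping hexokinase, went from 212, 203 and 200.4 to 317, 322 and 312 CPM in wild type and from 205, 205 and 199 to 286, 282 and 290.1 CPM in the knockout. The 24 h libraries of each genotype lay above its untreated ones. The changes were 0.63 ± 0.030 and 0.49 ± 0.031, and the difference was -0.13 ± 0.043 (edgeR adjusted p = 0.0148). That call was lost without untreated wild-type replicate 3 (-0.12, adjusted p = 0.0546) and with no filter on low counts (-0.12, adjusted p = 0.163). GPI, the isomerase that turns glucose 6-phosphate into fructose 6-phosphate, parted the genotypes. Wild type held 158, 149 and 145 CPM untreated and 142, 140.2 and 139 CPM at 24 h, and the knockout 142, 142 and 132 and 172, 167 and 168 CPM. The change was -0.11 ± 0.041 in wild type and 0.29 ± 0.041 in the knockout, with a difference of 0.40 ± 0.058 (edgeR adjusted p = 5.02e-07). The small wild-type fall was no longer called without untreated replicate 1 (-0.07, adjusted p = 0.176), or without wild-type 24 h replicate 2 (adjusted p = 0.0569) or 3 (adjusted p = 0.0894).

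The phosphofructokinase subunits, which together form the main control point of glycolysis, moved apart from each other. PFKM, the muscle-type subunit, fell to a low at 8 h in both genotypes and recovered. It held 69.8, 71.9 and 75.9 CPM untreated, 40.8, 43.4 and 40.2 CPM at 8 h and 71.2, 66.2 and 61.1 CPM at 24 h in wild type. The knockout held 77.1, 81.4 and 78.7 CPM untreated, 53.1, 53.4 and 55.4 CPM at 8 h and 93.6, 95.6 and 96.9 CPM at 24 h. At 24 h all knockout libraries lay above all wild-type ones, while the wild-type 24 h and untreated libraries overlapped. The change at 24 h was -0.13 ± 0.047 in wild type and 0.27 ± 0.044 in the knockout, and the difference was 0.40 ± 0.064 (edgeR adjusted p = 3.12e-06). On TPM none of these was called: with limma on log2(TPM + 1) they were -0.16 (adjusted p = 0.149), 0.009 (adjusted p = 0.949) and 0.17 (adjusted p = 0.488). The wild-type fall was also lost without untreated wild-type replicate 3 (-0.084, adjusted p = 0.161) or 24 h replicate 3 (-0.071, adjusted p = 0.214).

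PFKP, the platelet-type subunit, rose early and came back. It held 80.1, 79.4 and 74.9 CPM untreated, 116, 108 and 110 CPM at 8 h and 78.6, 74.5 and 76.1 CPM at 24 h in wild type, and 82.1, 66.3 and 69.8, then 118, 110.3 and 112, then 77.7, 79.6 and 70.5 CPM at the same times in the knockout. Its change at 8 h was 0.51 ± 0.052 and 0.65 ± 0.052, and at 24 h -0.032 ± 0.054 and 0.069 ± 0.055, neither of the latter called; the knockout one was on log2(TPM + 1) (0.21, adjusted p = 0.0293) and without untreated replicate 1 (0.16, adjusted p = 0.00965). PFKL, the liver-type subunit, changed least: it held 92.1, 92.7 and 90.05 and then 103, 97.6 and 95.4 CPM in wild type and 86.1, 87.6 and 86.4 and then 97.7, 96.4 and 99.9 CPM in the knockout. Its 24 h changes were 0.11 ± 0.039 and 0.18 ± 0.040, and the wild-type call was lost without 24 h replicate 1 (0.080, adjusted p = 0.112), on log2(TPM + 1) (0.10, adjusted p = 0.262) and with no filter on low counts (adjusted p = 0.0905). For PFKP and PFKL the difference between genotypes was not called at any of the 5 times.

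All 3 PFKFB genes fell in both genotypes. They encode bifunctional enzymes that make and remove fructose 2,6-bisphosphate, an activator of phosphofructokinase. PFKFB4 held 12.7, 12.5 and 13.3 CPM untreated and 4.74, 3.82 and 3.92 CPM at 24 h in wild type, and 13.9, 11.2 and 13.6 and 4.71, 5.64 and 7.04 CPM in the knockout. Its changes were -1.63 ± 0.12 and -1.13 ± 0.11. PFKFB3, the form with the strongest kinase activity, went from 108, 106 and 108 to 69.95, 69.1 and 68.5 CPM in wild type and from 106, 109 and 114 to 83.4, 79.7 and 77.5 CPM in the knockout, changes of -0.64 ± 0.042 and -0.46 ± 0.040. PFKFB2, the heart-type form, went from 43.1, 50.2 and 51.1 to 27.3, 30.7 and 30.96 CPM and from 51.9, 61.2 and 57.3 to 32.3, 33.8 and 30.4 CPM, changes of -0.69 ± 0.071 and -0.83 ± 0.068. In each of the 3 genes the 24 h libraries lay below the untreated ones of their genotype, where 68.7% of all tested genes had no overlap. The differences at 24 h were 0.49 ± 0.17 for PFKFB4 (edgeR adjusted p = 0.0241), 0.18 ± 0.058 for PFKFB3 (edgeR adjusted p = 0.0149) and -0.13 ± 0.10 for PFKFB2, which was not called. Both calls were fragile. That of PFKFB4 was lost with DESeq2 (0.48, adjusted p = 0.0773), with no filter on low counts (0.51, adjusted p = 0.0851), in a fit of the contrast's own groups (0.50, adjusted p = 0.0553), on log2(TPM + 1) (0.31, adjusted p = 0.594) and without any 1 of 5 libraries (0.30 to 0.46, adjusted p 0.0516 to 0.29). That of PFKFB3 was lost on log2(TPM + 1) (0.24, adjusted p = 0.0873) and without any 1 of 5 libraries (0.14 to 0.15, adjusted p 0.0535 to 0.0793).

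**Figure D2:**
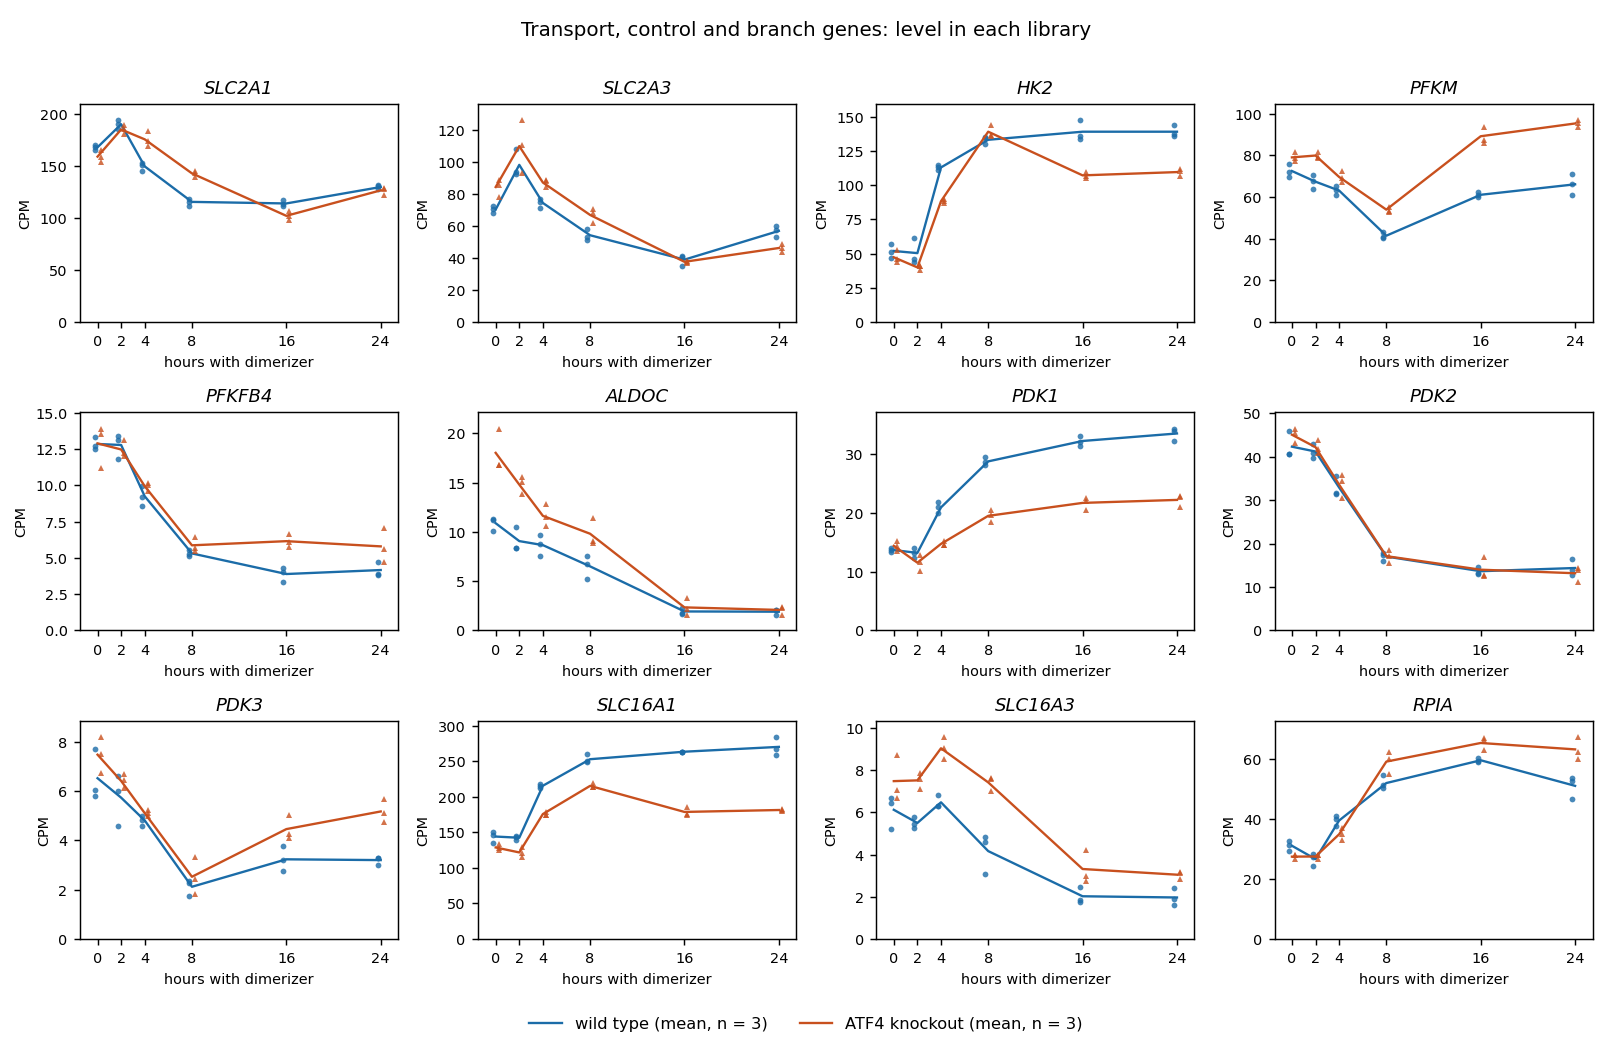
Level in CPM of 12 transport, control and branch genes in each library against hours with dimerizer; circles are wild-type and triangles ATF4 knockout libraries, and lines join the means of 3. PDK1, SLC16A1, HK2 and SLC2A3 end with the wild-type libraries above the knockout ones, PFKM, PDK3, SLC16A3 and RPIA with the knockout libraries above. In the other panels the genotypes overlap at 24 h. Of all tested genes 47.2% had no overlap there.

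From aldolase to pyruvate kinase, 3 of 9 genes rose and 5 fell at 24 h in wild type, and 7 rose and 2 fell in the knockout, beside 65.4% of all tested genes called in each genotype. The difference was positive and called for 8 of the 9, beside 29.8% of all tested genes called in either direction, with a median over the group of 0.42, beside 0.045 over all tested genes. ALDOA, which splits fructose 1,6-bisphosphate, held 523, 515 and 503 CPM untreated and 643, 676 and 642 CPM at 24 h in wild type, and 483, 478 and 464 and 728, 747 and 763 CPM in the knockout. The knockout libraries lay below the wild-type ones untreated and above them at 24 h. The change was 0.35 ± 0.024 in wild type and 0.65 ± 0.024 in the knockout, and the difference 0.30 ± 0.034 (edgeR adjusted p = 1.58e-09). TPI1, triose phosphate isomerase, held 459, 459 and 451 and then 504, 519.8 and 508 CPM in wild type, and 400.4, 385 and 386 and then 620.4, 636 and 648 CPM in the knockout. It rose in both, by 0.16 ± 0.025 and 0.70 ± 0.025, and differed by 0.54 ± 0.036 (edgeR adjusted p = 3.83e-16). The order of the genotypes was again turned round, with no overlap at either end.

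GAPDH, the oxidising step and a common reference gene for RNA assays, was level in wild type and rose in the knockout. It held 2235, 2212 and 2262 CPM untreated and 2218, 2227 and 2197 CPM at 24 h in wild type. The knockout held 2100, 2066 and 1969 and 2658, 2733 and 2762 CPM. The wild-type values at the ends of the course overlapped, and every 24 h knockout library exceeded every untreated and every wild-type 24 h library. The change was -0.014 ± 0.023 in wild type, not called, and 0.41 ± 0.023 in the knockout, with a difference of 0.42 ± 0.032 (edgeR adjusted p = 2.25e-14). Within wild type GAPDH was not flat over the whole course: it was called lower at 2, 4 and 8 h (-0.11, -0.091 and -0.14) and higher at 16 h (0.13).

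PGK1, the first enzyme of the pathway to return ATP, fell in both genotypes, and less in the knockout: its changes were -0.36 ± 0.030 and -0.079 ± 0.029, and the difference was 0.29 ± 0.042 (edgeR adjusted p = 4.74e-07). The difference was not called on log2(TPM + 1) (0.19, adjusted p = 0.072), nor was the small knockout fall without untreated replicate 1 or 2 or 24 h replicate 1 (-0.063 to -0.066, adjusted p 0.0708 to 0.0903) or with no filter on low counts (-0.068, adjusted p = 0.167). PGAM1, phosphoglycerate mutase, held 373, 353 and 358 CPM untreated, 271, 265 and 280.1 CPM at 8 h and 309.5, 302 and 306 CPM at 24 h in wild type. The knockout held 313, 301 and 294 CPM, then 267, 252 and 263 CPM, then 381, 376 and 393 CPM. Both genotypes dipped at 8 h, and only the knockout libraries then passed their untreated level. The change at 24 h was -0.24 ± 0.029 in wild type and 0.34 ± 0.029 in the knockout, and the difference 0.59 ± 0.040 (edgeR adjusted p = 1.62e-15).

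The 2 enolases, which make phosphoenolpyruvate, behaved differently. ENO1, the form found in most tissues, held 1752, 1726 and 1696 CPM untreated and 2621, 2623 and 2562 CPM at 24 h in wild type, and 1461, 1393 and 1334 and 2629, 2679 and 2741 CPM in the knockout. The knockout started lower with no overlap and ended above the wild-type libraries, where the level difference was not called. It rose in both, by 0.59 ± 0.024 and 0.94 ± 0.024, and differed by 0.35 ± 0.034 (edgeR adjusted p = 2.73e-11). ENO2, the form named for neurons, held 75.2, 81.1 and 74.5 CPM untreated, 33.9, 35.2 and 37.05 CPM at 8 h and 47.4, 47.9 and 46.5 CPM at 24 h in wild type. In the knockout it held 75.9, 71.02 and 75.8 CPM untreated, 51.7, 50.9 and 49.5 CPM at 8 h and 90.7, 87.2 and 96.2 CPM at 24 h. Untreated libraries of the genotypes overlapped, both stood lowest at 8 h, and from 4 h on the knockout libraries lay above the wild-type ones. The change at 24 h was -0.69 ± 0.055 in wild type and 0.30 ± 0.050 in the knockout, and the difference of 0.99 ± 0.075 (edgeR adjusted p = 2.22e-14) was the largest of the 33 members at that time. The knockout rise was not called on log2(TPM + 1) (0.11, adjusted p = 0.29), where the untreated group had 2 columns because the TPM column of replicate 3 was left out.

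ALDOC, the brain-type aldolase, was the exception in this group and fell furthest of all members. It held 11.3, 11.2 and 10.04 CPM untreated and 2.07, 2.02 and 1.59 CPM at 24 h in wild type, and 20.5, 16.8 and 16.7 and 2.31, 2.38 and 1.53 CPM in the knockout. The untreated knockout libraries lay above the wild-type ones, and at 24 h the genotypes overlapped. The changes were -2.49 ± 0.18 and -3.12 ± 0.16, and their difference of -0.62 ± 0.29 was not called (edgeR adjusted p = 0.10). PKM, pyruvate kinase, held 2070, 1997 and 2021 CPM untreated and 1648, 1644 and 1631 CPM at 24 h in wild type, and 1868, 1808 and 1754 and 1966, 1961 and 1997 CPM in the knockout. Gene-level counts do not separate its M1 and M2 splice forms. Every 24 h wild-type library lay below its untreated ones, and every 24 h knockout library above its own. The change was -0.31 ± 0.023 in wild type and 0.13 ± 0.023 in the knockout, and the difference 0.43 ± 0.032 (edgeR adjusted p = 2.12e-14). The knockout rise was not called on log2(TPM + 1) (0.022, adjusted p = 0.487), with the same column left out.

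**Figure D3:**
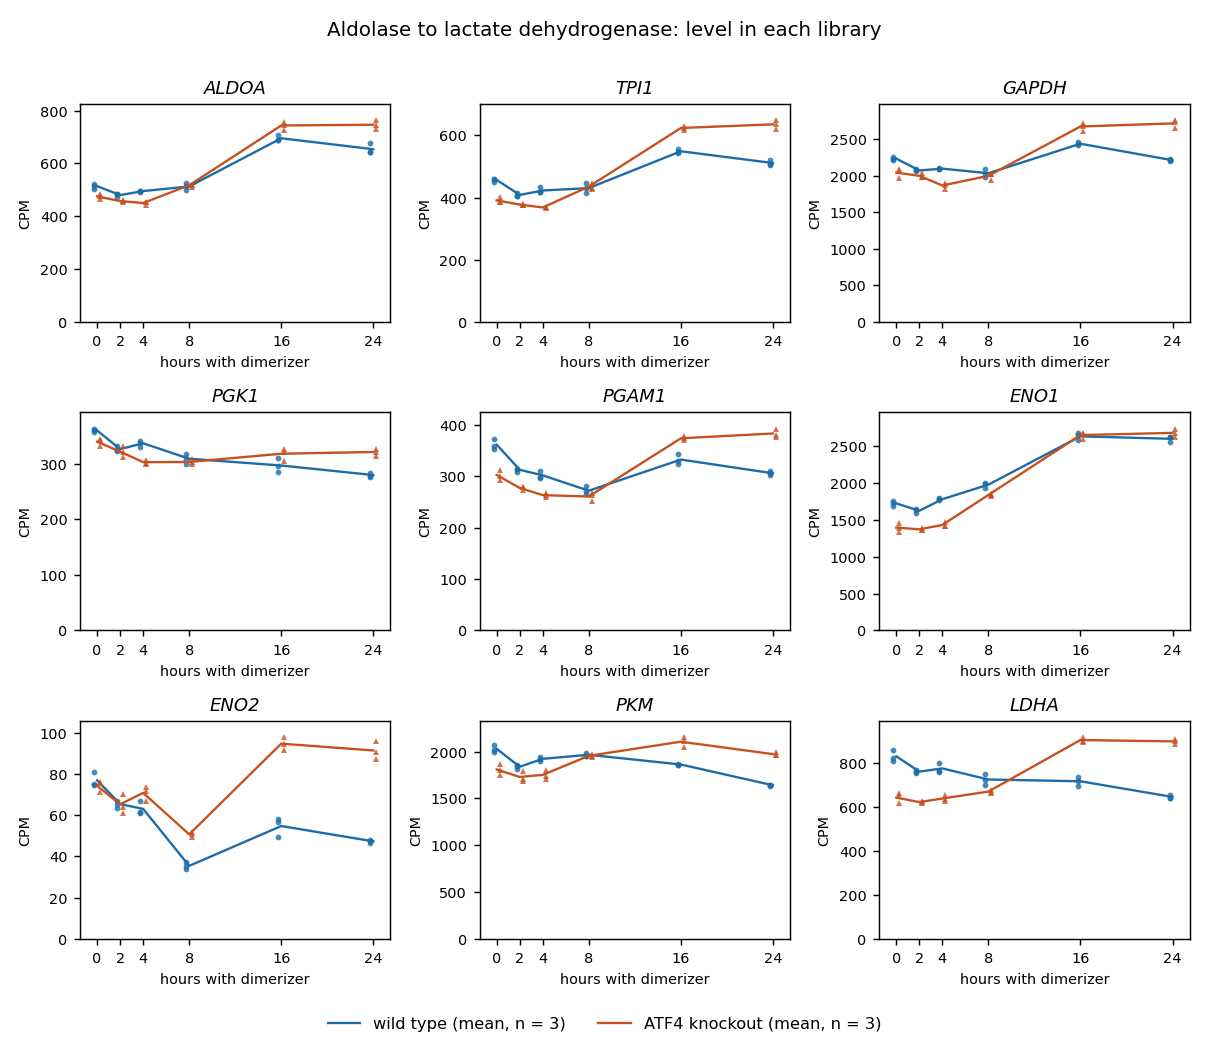
Level in CPM of 9 genes from aldolase to lactate dehydrogenase in each library against hours with dimerizer; circles are wild-type and triangles ATF4 knockout libraries, and lines join the means of 3. At 24 h the knockout libraries lie above the wild-type ones in all 9 panels, without overlap as in 47.2% of all tested genes. The gap is least in ENO1, where the level difference was not called, and most, as a ratio, in ENO2. ALDOC, whose genotypes overlapped at 24 h, and LDHB are not drawn.

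Lactate dehydrogenase reduces pyruvate to lactate and restores the NAD that GAPDH uses. LDHA, the form that favours lactate, held 859, 809 and 819 CPM in untreated wild-type wells, 700.3, 720 and 749.8 CPM at 8 h, 693, 736 and 717 CPM at 16 h and 639, 653 and 641 CPM at 24 h. The knockout held 660.5, 647 and 617 CPM, 662, 668 and 676 CPM, 892, 916 and 899.5 CPM and 884, 898 and 908 CPM at the same times. The genotypes changed places: every untreated knockout library lay below every untreated wild-type library, and every 16 h and 24 h knockout library above every wild-type library of its time. Against untreated cells LDHA changed by -0.36 ± 0.027 in wild type and 0.48 ± 0.027 in the knockout at 24 h. The difference grew from 0.26 ± 0.039 (8 h) through 0.71 ± 0.038 (16 h) to 0.85 ± 0.039 (24 h, edgeR adjusted p = 1.87e-21). Between genotypes the level differed by -0.37 ± 0.027 untreated and 0.48 ± 0.027 at 24 h. LDHB, the form that favours pyruvate, moved less: it changed by 0.011 ± 0.023 in wild type, not called, and 0.29 ± 0.023 in the knockout, a difference of 0.28 ± 0.033 (edgeR adjusted p = 4.21e-09).

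Promoter sequence is shown for LDHA, GAPDH, ENO2, PGK1 and HK1, which all hold a match to a motif searched. They were not picked by the size of their difference between genotypes. Windows from 250 bases before to 50 after the start site listed for each gene were available for 30 of the 33 members (RefSeq, build GRCh38.p14). PFKFB2, SLC16A1 and SLC2A3 had none. Both strands were searched for ACGTG and GCGTG, the core letters of hypoxia response elements, and for TGATGNAA, the composite element bound by ATF4 with C/EBP proteins. A CACGTG palindrome, also the E-box letters bound by MYC, counts as ACGTG once on each strand. Each stretch below is 30 bases of the plus strand, 5′ to 3′, with matches in capitals.
LDHA: actcaCACGTGggttcccgCACGTccgccg
GAPDH: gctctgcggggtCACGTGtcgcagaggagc
ENO2: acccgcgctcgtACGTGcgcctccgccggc
PGK1: cgcgGCGTGccggACGTGacaaacggaagc
HK1: tgactaattgaTTGCATCAtagaatccttg
They lie at chr11:18394471-18394500, chr12:6535171-6535200, chr12:6914450-6914479, chrX:78104033-78104062 and chr10:69269944-69269973, at 92 to 63, 93 to 64, 130 to 101, 215 to 186 and 56 to 27 bases before that listed start. In the GENCODE annotation LDHA, GAPDH and ENO2 start further upstream, at 18394388, 6533927 and 6913745, so their stretches lie inside the annotated genes. An annotated exon covers up to 175, 128 and 250 of the 250 bases before the listed start in these 3 genes, 74 in PGK1 and 16 in HK1. The LDHA and GAPDH stretches each hold a CACGTG palindrome, and LDHA a further match read from the other strand. ACGTG was found in 10 of 30 member promoters (33.3%), beside 21.4% of all 35114 promoters in the table, and GCGTG in 14 (46.7%), beside 36.5%. Either was found in 18 of 30, beside 48.4%. Both motifs hold a CG pair, and the promoters set beside the members were not matched for GC content. A single window was taken for each member. TGATGNAA was found in 1 of 30, HK1, on the minus strand (3.3%), beside 3.6% of all promoters. PDK1, PGAM1 and TPI1 differed more between genotypes at 24 h than GAPDH and PGK1, and their windows held 0 matches to any of these motifs. These are matches of letters in a short window, and binding was not measured. Any link between the motifs and the courses was not tested.

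The 2 lactate transporters moved in opposite directions. SLC16A1 encodes MCT1, which carries lactate and pyruvate either way across the membrane. It held 147, 150.2 and 136 CPM untreated, 251, 259.8 and 248 CPM at 8 h and 284, 259.5 and 268 CPM at 24 h in wild type. The knockout held 133, 125 and 128 CPM, 213, 219 and 214 CPM and 183, 180.2 and 181 CPM. The wild-type 8 h and 24 h libraries overlapped, while every 24 h knockout library lay below every 8 h one. It rose by 0.91 ± 0.036 in wild type and 0.50 ± 0.037 in the knockout, a difference of -0.41 ± 0.052 (edgeR adjusted p = 1.78e-08). SLC16A3 encodes MCT4, the exporter of strongly glycolytic cells, and was scarce here. It held 5.20, 6.70 and 6.46 CPM untreated and 2.42, 1.87 and 1.59 CPM at 24 h in wild type, and 8.73, 6.67 and 7.05 and 3.17, 2.82 and 3.14 CPM in the knockout. The 24 h libraries lay below the untreated ones in each genotype. It fell by 1.61 ± 0.18 and 1.29 ± 0.15 on the log2 scale, and the difference of 0.33 ± 0.24 was not called.

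The 3 pyruvate dehydrogenase kinases, which hold pyruvate back from the mitochondria, also split. PDK1, the form known as a HIF-1 target, was the 1 member whose difference was called lower at 4 h. It held 13.6, 13.4 and 14.1 CPM untreated, 21.8, 20.03 and 21.1 CPM at 4 h and 33.98, 34.4 and 32.3 CPM at 24 h in wild type. The knockout held 15.3, 14.4 and 13.6 CPM, 14.5, 15.2 and 14.5 CPM and 22.9, 22.8 and 21.1 CPM at these times. Untreated libraries overlapped, and from 4 h on every wild-type library lay above every knockout one. The change at 24 h was 1.29 ± 0.068 in wild type and 0.63 ± 0.073 in the knockout. The difference was -0.57 ± 0.11 at 4 h (edgeR adjusted p = 0.000659), then -0.62 ± 0.10 and -0.62 ± 0.10, and -0.66 ± 0.10 by the last time (edgeR adjusted p = 1.24e-06).

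PDK2, a broadly expressed form, fell in both genotypes. It held 40.6, 40.5 and 45.8 CPM untreated and 12.8, 13.8 and 16.4 CPM at 24 h in wild type, and 45.4, 46.5 and 43.2 and 14.3, 11.1 and 14.01 CPM in the knockout. The changes were -1.57 ± 0.088 and -1.78 ± 0.088, and the difference of -0.20 ± 0.13 was not called. PDK3 fell to a low at 8 h and partly returned: it held 6.06, 5.81 and 7.73 CPM untreated, 2.35, 2.27 and 1.73 CPM at 8 h and 3.02, 3.30 and 3.29 CPM at 24 h in wild type. The knockout held 8.21, 6.76 and 7.50 CPM, 1.82, 3.31 and 2.44 CPM and 5.67, 5.13 and 4.74 CPM. At 24 h the knockout libraries lay above the wild-type ones, by 0.68 ± 0.17 (edgeR adjusted p = 0.0011), but the difference in change, 0.50 ± 0.22, was not called (edgeR adjusted p = 0.084).

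Of the 6 pentose phosphate genes, 2 rose and 2 fell at 24 h in each genotype, a share near the 65.4% of all tested genes called, with a median change of 0.038 in wild type and -0.065 in the knockout. The 2 that rose were RPIA and RPE, which interconvert the pentose phosphates. RPIA, ribose 5-phosphate isomerase, held 29.3, 32.4 and 31.2 CPM untreated, 51.1, 54.4 and 50.04 CPM at 8 h and 52.7, 53.5 and 46.5 CPM at 24 h in wild type. The knockout held 27.9, 27.8 and 26.4 CPM, 62.1, 55.01 and 59.8 CPM and 67.2, 59.8 and 62.2 CPM. The knockout libraries lay below wild type untreated and above it at 8 and 24 h. The level difference between genotypes was not called untreated and was called at 24 h. RPIA rose by 0.73 ± 0.061 and 1.21 ± 0.061, a difference of 0.47 ± 0.088 (edgeR adjusted p = 3.32e-05). RPE, the epimerase, went from 49.6, 44.8 and 47.3 to 61.1, 57.4 and 59.2 CPM in wild type and from 46.7, 42.00 and 43.4 to 64.9, 63.7 and 62.2 CPM in the knockout. Its changes were 0.32 ± 0.052 and 0.53 ± 0.052. The difference, 0.21 ± 0.074 (edgeR adjusted p = 0.0229), was lost with DESeq2 (0.20, adjusted p = 0.0507), on log2(TPM + 1) (0.14, adjusted p = 0.47) and without any 1 of 5 libraries (0.16 to 0.20, adjusted p 0.0562 to 0.149).

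The 2 that fell were PGLS and TKT. PGLS, the lactonase of the oxidative branch, went from 16.1, 15.6 and 17.6 to 11.1, 10.7 and 13.2 CPM in wild type and from 13.6, 17.1 and 14.03 to 8.36, 9.40 and 11.4 CPM in the knockout, changes of -0.51 ± 0.10 and -0.60 ± 0.10. TKT, transketolase, went from 270.3, 270.1 and 265 to 232, 238 and 233 CPM and from 243, 251 and 246 to 209.9, 219.9 and 223 CPM, changes of -0.19 ± 0.028 and -0.18 ± 0.029. In both genes the 24 h libraries lay below the untreated ones of their genotype. TALDO1, transaldolase, which with transketolase links the pathway back to glycolysis, held 79.6, 73.9 and 79.2 CPM untreated, 90.6, 93.1 and 98.03 CPM at 16 h and 81.5, 77.8 and 86.8 CPM at 24 h in wild type. The knockout held 72.01, 70.5 and 69.3 CPM, 67.9, 70.95 and 70.05 CPM and 66.1, 64.04 and 68.7 CPM. Its 24 h changes of 0.071 ± 0.051 and -0.087 ± 0.054 were not called, nor was the difference of -0.16 ± 0.074, which passed without knockout 24 h replicate 3 (-0.21, adjusted p = 0.0447). At 16 h it had risen in wild type (0.27 ± 0.049) and not in the knockout (-0.021 ± 0.055, not called), a difference of -0.29 ± 0.073 (edgeR adjusted p = 0.00182), opposite in sign to that of the lower glycolytic genes. PGD, which makes NADPH and ribulose 5-phosphate, ranged from -0.17 to 0.015 over its 10 changes, of which 4 were called, all lower. The differences of PGLS, PGD, TKT and TALDO1 at 24 h ranged from -0.16 to 0.014, none called.

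**Figure D4:**
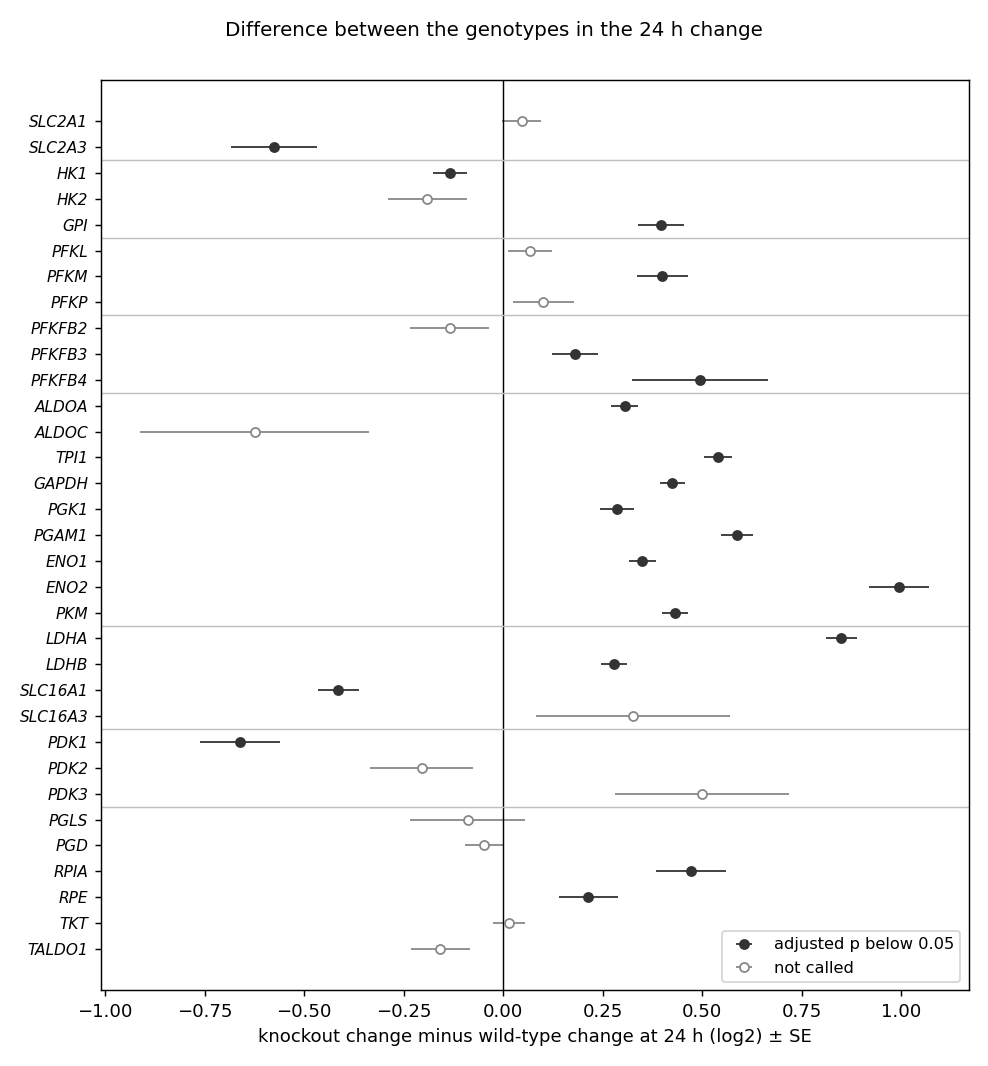
Knockout change minus wild-type change at 24 h for the 33 genes in pathway order (log2, horizontal axis); bars are 1 SE, and filled points have an adjusted p below 0.05. Filled points to the right of 0 run from ALDOA to LDHB, apart from the open point of ALDOC. GPI, PFKM, PFKFB3, PFKFB4, RPIA and RPE are the other filled points to the right. PDK1, SLC2A3, SLC16A1 and HK1 are the filled points to the left.

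Summed over the 9 genes from aldolase to pyruvate kinase, wild type held 7863, 7711 and 7735 CPM untreated and 8278, 8320 and 8171 CPM at 24 h. The knockout held 7063, 6865 and 6626 CPM untreated and 9389, 9549 and 9724 CPM at 24 h. The genotypes did not overlap at either end and stood in opposite order. The sum is mostly GAPDH, ENO1 and PKM. The 6 pentose phosphate genes summed to 659, 629 and 643 CPM untreated and 638, 645 and 646 CPM at 24 h in wild type. In the knockout they summed to 600, 599.6 and 594 CPM untreated and 599.5, 606 and 619.9 CPM at 24 h. The knockout lay below wild type at both ends, and the untreated and 24 h values of wild type overlapped.

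**Figure D5:**
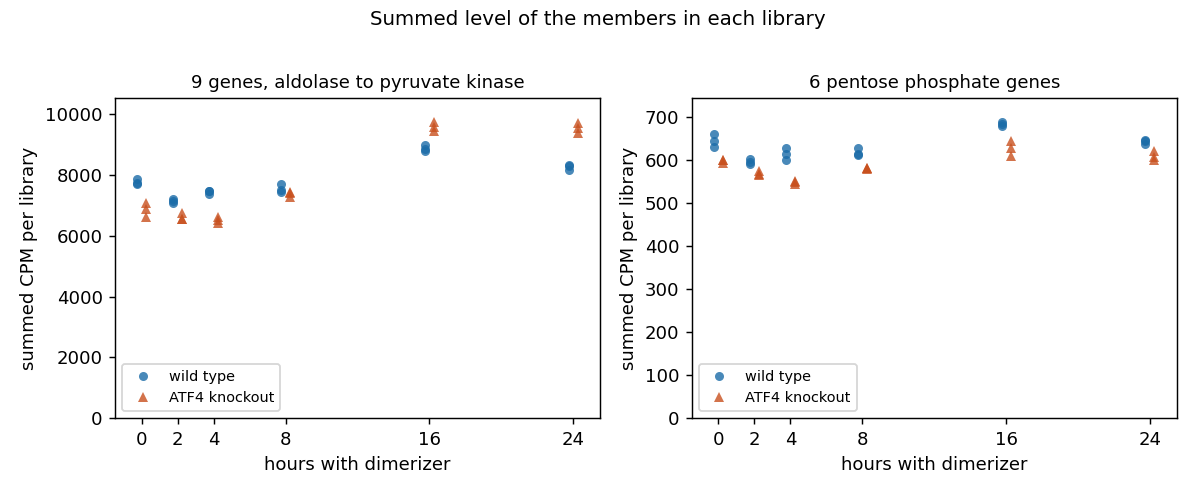
Summed CPM per library of the 9 genes from aldolase to pyruvate kinase (left) and of the 6 pentose phosphate genes (right) against hours with dimerizer; circles are wild-type and triangles ATF4 knockout libraries. In the left panel the knockout libraries move from below the wild-type ones at 0 h to above them at 16 and 24 h, and in the right panel they stay below.

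Other genes of sugar metabolism were described from lists. At 24 h 65.4% of all tested genes were called in each genotype and 29.8% for the difference, and no list was tested against these shares. Of 22 tested genes of sugar and glycogen entry, 6 rose and 12 fell in wild type at 24 h and 9 rose and 6 fell in the knockout, and the difference was positive for 9 and negative for 5. The hexokinase-like HKDC1 changed by 3.14 ± 0.24 in wild type and 0.48 ± 0.45 in the knockout, the latter not called, a difference of -2.65 ± 0.55. Sorbitol dehydrogenase SORD rose by 0.87 ± 0.067 and 1.31 ± 0.066. Of 22 genes of pyruvate and malate handling, 11 rose and 7 fell in wild type and 10 rose and 8 fell in the knockout. PCK2, which makes phosphoenolpyruvate in mitochondria, changed by 2.33 ± 0.053 and -0.074 ± 0.087, and the aspartate transaminase GOT1 by 1.68 ± 0.048 and -0.18 ± 0.061, in wild type and knockout. The pyruvate dehydrogenase subunit DLAT and malate dehydrogenase MDH2 rose in both genotypes, and more in the knockout. DLAT rose by 0.58 ± 0.039 in wild type and 0.90 ± 0.039 in the knockout, a difference of 0.33 ± 0.055. MDH2 rose by 0.38 ± 0.033 and 0.72 ± 0.033, a difference of 0.35 ± 0.047. Among 11 other NADPH and ribose genes, 5 rose and 2 fell in wild type and 6 rose and 4 fell in the knockout. IDH1, which makes NADPH in the cytosol, changed by 1.26 ± 0.052 in wild type and -2.41 ± 0.078 in the knockout, a difference of -3.66 ± 0.094.

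Of the 7 genes of the hexosamine pathway, which draws on fructose 6-phosphate to make sugar donors for glycosylation, 5 rose and 1 fell in wild type and 3 rose and 3 fell in the knockout. The difference was negative for 4, among them the entry enzyme GFPT1 (-1.42 ± 0.051) and the O-GlcNAc transferase OGT (-0.90 ± 0.042), and positive for 1, GFPT2 (0.88 ± 0.14). Of 12 tested HIF-1 target genes outside glycolysis, 3 rose and 6 fell in wild type and 1 rose and 6 fell in the knockout, and the difference was positive for 3 and negative for 4. VEGFA, an angiogenic factor, changed by 1.10 ± 0.051 in wild type and -0.69 ± 0.062 in the knockout, and NDRG1 by -0.59 ± 0.043 and -1.47 ± 0.046. BNIP3, a mitophagy receptor, rose in both, by 0.98 ± 0.059 and 1.07 ± 0.059. P4HA2 changed by -1.09 ± 0.061 and -0.84 ± 0.061, a positive difference of 0.25 ± 0.088 (edgeR adjusted p = 0.026). The median difference of that list was 0.015, beside 0.42 for aldolase to pyruvate kinase and 0.045 over all tested genes. For both lists the shares of all tested genes called were again 65.4% in each genotype and 29.8% for the difference.

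Of 8 tested regulators of glucose use, 7 rose and 1 fell in wild type and 5 rose and 2 fell in the knockout at 24 h. Beside them, 65.4% of all tested genes were called in each genotype. HIF1A, the oxygen-regulated subunit of HIF-1, changed by 0.25 ± 0.029 in wild type and 0.74 ± 0.029 in the knockout, a difference of 0.49 ± 0.041, and its paralogue EPAS1 by 0.33 ± 0.062 and -2.14 ± 0.079, a difference of -2.47 ± 0.10. MYC rose by 1.14 ± 0.042 and 0.70 ± 0.044, a difference of -0.44 ± 0.061. TXNIP, an inhibitor of glucose uptake whose mRNA follows sugar phosphate levels, rose by 2.42 ± 0.12 and 1.45 ± 0.10. The part of these regulators in the courses of the 33 genes was not tested.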

How the data were processed

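RNA from 36 wells of U2OS Dmr-PERK cells was sequenced from directional libraries, per the labels' protocols. The authors deposited gene tables of estimated (expected) counts and of TPM (transcript abundance corrected for length), made with Salmon 0.9.1 after FastQC 0.11.5 on GRCh38, per the submitters' processing notes. Between 72.0% and 78.9% of the deposited values were whole numbers (within 1e-06), and the expected counts were rounded. Comparing log values over 10521 genes, 33 of the 36 TPM columns matched their own counts. Among the untreated knockout columns, TPM replicates 1 and 2 matched other replicates' counts and replicate 3 best matched another group, so it was left out of TPM fits (35 columns used) and counts were the basis of all results.

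Genes were filtered with filterByExpr by group, scaled by TMM and fitted as 12 group means with edgeR 4.0.16 (quasi-likelihood, R 4.3.3), with Benjamini-Hochberg adjustment over 19043 genes in each of 21 contrasts; the fit was tested on simulated data. CPM are TMM-scaled. Alternatives were DESeq2 1.42.0, DESeq2 size factors in edgeR, no filter, only the contrast's groups, a minimum change of 1.2-fold, limma 3.58.1 on log2(TPM + 1) and log2(TPM + 0.1), the replicate block and leaving out each library. The members and lists were chosen with earlier results of these data known. All 33 members are named. Library values are given for the members with the largest called changes of each role group and for GAPDH, and also for PGAM1 and PKM, added after their values were seen. Up to 4 genes per list with the smallest adjusted p at 24 h were eligible to be named. Promoters came from RefSeq, and the planned alignment of isozyme proteins was not done. Whether libraries of 1 replicate number deviate together was checked.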

Additional observations from a re-analysis of the deposited data

Results flagged for a closer look

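The interaction test called the course different between genotypes for 2 members at 4 h, 14 at 8 h, 22 at 16 h and 20 at 24 h. Of all tested genes 3.28%, 18.3%, 27.7% and 29.8% were called at these times. At 24 h 6 members had changes called in opposite directions, down in wild type and up in the knockout. Their differences on the log2 scale were 0.40 for GPI, 0.40 for PFKM, 0.59 for PGAM1, 0.99 for ENO2, 0.43 for PKM and 0.85 for LDHA. The share of all tested genes with opposite calls was not taken. For LDHA the call in each genotype and that of the difference held under every alternative run, and for PGAM1 under every one but the 1.2-fold minimum, where the wild-type fall was not called. The opposite calls of the other 4 did not hold throughout. On log2(TPM + 1) the knockout rises of ENO2 (0.11, adjusted p = 0.29) and PKM (0.022, adjusted p = 0.487) and the PFKM difference (0.17, adjusted p = 0.488) were not called, and without untreated wild-type replicate 1 the GPI fall was not (-0.07, adjusted p = 0.176).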

How the results depend on the processing

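Of 693 member values, 678 kept their direction and side of the threshold with DESeq2, 685 with DESeq2 size factors, 653 with no filter on low counts, 669 with only the contrast's groups, 598 on log2(TPM + 1), 593 on log2(TPM + 0.1) and 443 when a change of more than 1.2-fold was required. Size factors moved the median of all genes by at most 0.0179. Requiring 1.2-fold left these numbers of members called: in wild type 1 of 17 at 2 h, 4 of 23 at 4 h, 18 of 28 at 8 h and 18 of 31 at 16 h; in the knockout 0 of 9 at 2 h, 5 of 23 at 4 h and 15 of 29 at 8 h; for the difference 0 of 2 at 4 h, 3 of 14 at 8 h, 9 of 22 at 16 h and 13 of 20 at 24 h; and between genotypes 2, 1, 1, 6, 8 and 8 at 0, 2, 4, 8, 16 and 24 h. On log2(TPM + 1) and log2(TPM + 0.1) alike, 10 members were called in wild type at 2 h, 2 and 13 in the knockout at 2 and 4 h, and 1 and 9 for the difference at 4 and 8 h; untreated genotypes differed in 9 and 8. DESeq2 called 1 difference at 2 h. Without 1 library, the knockout count at 2 h was 5 to 8 against 9 with all, the lowest without 2 h replicate 3, and the difference counts were 11 to 16, 18 to 22 and 17 to 20 at 8, 16 and 24 h. The sign changed on log2(TPM + 1) and log2(TPM + 0.1) for ALDOA in wild type at 8 h (0.083 and 0.083, from -0.002 uncalled), PFKM in the knockout at 16 h (-0.047 and -0.048, from 0.18) and the PFKM difference at 8 h (-0.004 and -0.001, from 0.26); the cause was not tested.

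Whether the replicate numbers pair the libraries is not settled. Of 36 libraries 20 correlated best with their own number, while in 0 of 16 contrasts did every pair exceed 0.1. The highest correlation of a pair was 0.072, between the untreated genotypes. With the replicate block 691 of 693 member values kept their call, and 20 members still passed for the difference at 24 h. The 2 gained were RPIA (adjusted p = 0.0427) and SLC2A3 (adjusted p = 0.0454) between genotypes at 4 and 2 h. Depth limits the scarce members: PDK3, SLC16A3, ALDOC and PFKFB4 have the largest standard errors at 24 h.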
